A study of Homo sapiens with 6 samples.

Results

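Genes of cholesterol and fatty acid synthesis were followed in HCT-8 cells, an established line from a human colorectal adenocarcinoma, after treatment with 5-fluorouracil (5-FU), a fluoropyrimidine that inhibits thymidylate synthase and enters RNA and DNA as a false base. The 38 genes were chosen by name for their place in the pathways, with earlier results of these data known. All 38 were found among the 58735 genes in the deposited count table. They comprise 5 regulators of the sterol regulatory element-binding proteins (SREBPs), 19 genes of the sterol branch and 14 of the fatty acid branch. RNA was sequenced from 3 samples of HCT-8 cells treated with 5-FU at its 10% inhibitory concentration and from 3 samples of untreated HCT-8 cells, called control below. All 6 samples were monolayers grown in RPMI-1640 with 10% fetal bovine serum, a medium that itself supplies lipoproteins and fatty acids. Neither the molar dose nor the duration is stated in the labels. The labels do not state whether the 3 samples of a group came from different cultures; the p-values therefore rest on a spread between samples that could be purely technical.

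Cells set the output of both branches through the SREBPs, membrane-bound transcription factors of the endoplasmic reticulum. SCAP escorts an SREBP to the Golgi, where it is cleaved and released to the nucleus, and the INSIG proteins hold SCAP back when sterols are plentiful. SREBF2 encodes the form best known for sterol genes and SREBF1 the forms best known for fatty acid genes, while INSIG1 is itself a classical SREBP target. Tumour cells, those of the colorectum included, often make fatty acids themselves even when lipid is supplied.

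Counts summed to between 18459939 and 20613228 in the 5-FU libraries and between 21659252 and 23495607 in the control libraries. Mitochondrial transcripts took 25.5% to 28.5% of counts in 5-FU and 4.66% to 4.88% in control libraries. Of 19771 genes tested with edgeR's quasi-likelihood test, 33.9% were lower and 36.3% higher in 5-FU at a Benjamini-Hochberg adjusted p under 0.05, the threshold used throughout, and the median log2 fold change of all genes was 0.09. Among the most abundant quintile of tested genes 60.4% were lower and 17.8% higher, at a median of -0.53, and 19 of the 37 tested members lie in that quintile. Of 11 tested colorectal epithelial markers, 4 were lower, 2 higher and 5 did not pass. Their summed level was 3724 to 4604 CPM (counts scaled to library size) in 5-FU and 4928 to 6738 CPM in control libraries. KRT8, a simple-epithelium keratin and the most abundant of them, was lower (log2 fold change -0.57, edgeR adjusted p = 0.0269), a call lost in 6 of 18 other settings. Markers of other cell types summed to 43.0 to 77.3 CPM in 5-FU and 24.2 to 30.2 CPM in control libraries. Of these 18 markers, 13 were under 1 CPM in every library and DCN was at 0 in all. COL1A1, a collagen chain, was the most abundant and was higher in 5-FU (log2 fold change 1.48, edgeR adjusted p = 0.000204). The part of these differences in the results on lipid genes was not tested. Leaving out the mitochondrial genes left 31 members lower and 2 higher, the counts obtained with them. The library scaling was refitted without them, and the median log2 fold change of all genes moved by 0.00116. The calls thus had little room to change, and this does not test the part of the mitochondrial difference.

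Most lipid synthesis genes were lower after 5-FU. Of 37 members tested, 31 fell, 2 rose and 4 did not pass, where 70.2% of all tested genes passed, 33.9% as lower and 36.3% as higher. The groups did not overlap for 32 members, against 74.3% of all tested genes. At least a 2-fold fall was found for 17 members, against 16.2% of all tested genes. The median log2 fold change of the members was -0.94. Upper-quartile scaling gave 24 members lower and 3 higher, with 67.5% of all called genes higher, against 51.7% of called genes with TMM scaling. On log2(FPKM + 1) values 31 members were lower and 2 higher, with 37.7% of called genes higher. That setting kept only genes with an FPKM of at least 1 in at least 3 libraries. With no filter it gave 30 members lower and 0 higher, with 50.1% of called genes higher. In bulk RNA a lower level in every cell and fewer cells that make the transcript cannot be told apart. The 1 member left untested was ELOVL5, an elongase of polyunsaturated fatty acids, with 0, 7 and 3 counts in the 5-FU libraries and 2, 1 and 2 in the control libraries.

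**Figure D1:**
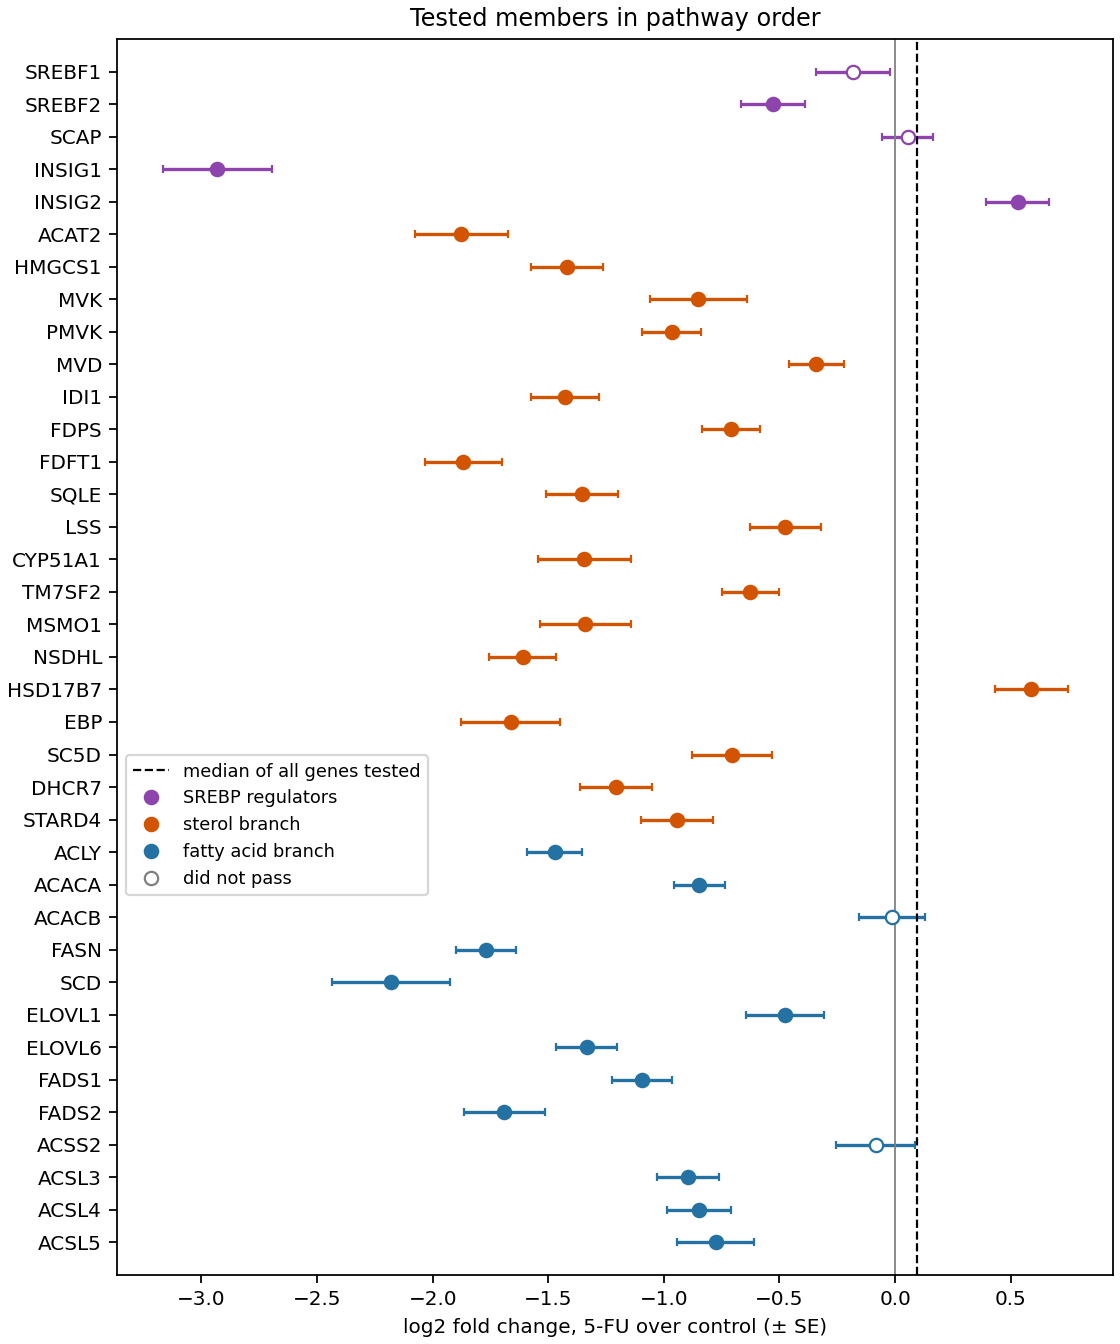
Log2 fold change (5-FU over control, horizontal axis, with SE bars) of the 37 tested members in pathway order, coloured by role, with open points for the 4 that did not pass and a dashed line at the median of all tested genes (0.09). INSIG1 and SCD lie farthest to the left, and INSIG2 and HSD17B7 are the filled points right of 0.

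The promoters of 5 members are shown first, for these reasons. INSIG1 and INSIG2 moved in opposite directions, and NSDHL and SCD show CCAAT boxes in a gene of each branch. SREBF2 held the only match to the sterol regulatory element pattern used here. The windows are RefSeq reference sequence (GRCh38.p14) from 250 bases before to 50 bases after an annotated start, 5′ to 3′ on the gene's own strand, which is the plus strand for all 5. They lie at chr7:155297628-155297927 (INSIG1), chr2:118088221-118088520 (INSIG2), chr22:41832855-41833154 (SREBF2), chrX:152830813-152831112 (NSDHL) and chr10:100346983-100347282 (SCD). Capitals mark matches, on either strand, to a sterol regulatory element (TCACNCCAC), an E-box (CACGTG) or a CCAAT box, which reads CCAAT or ATTGG.
INSIG1: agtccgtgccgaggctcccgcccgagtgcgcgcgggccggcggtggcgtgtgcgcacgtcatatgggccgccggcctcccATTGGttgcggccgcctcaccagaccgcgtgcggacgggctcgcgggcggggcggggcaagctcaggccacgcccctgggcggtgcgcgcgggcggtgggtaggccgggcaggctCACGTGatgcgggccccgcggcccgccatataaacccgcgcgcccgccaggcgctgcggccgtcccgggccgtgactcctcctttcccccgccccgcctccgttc
INSIG2: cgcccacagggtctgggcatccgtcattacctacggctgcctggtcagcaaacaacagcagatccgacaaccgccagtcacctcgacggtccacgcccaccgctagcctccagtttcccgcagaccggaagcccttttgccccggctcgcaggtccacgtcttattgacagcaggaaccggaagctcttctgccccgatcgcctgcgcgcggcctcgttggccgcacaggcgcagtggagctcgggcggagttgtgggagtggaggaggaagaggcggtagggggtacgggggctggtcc
SREBF2: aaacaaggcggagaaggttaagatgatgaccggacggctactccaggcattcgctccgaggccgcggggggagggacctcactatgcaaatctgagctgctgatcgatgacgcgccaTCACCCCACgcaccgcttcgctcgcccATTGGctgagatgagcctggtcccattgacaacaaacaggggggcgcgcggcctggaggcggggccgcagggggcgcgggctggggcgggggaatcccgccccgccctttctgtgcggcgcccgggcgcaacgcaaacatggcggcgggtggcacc
NSDHL: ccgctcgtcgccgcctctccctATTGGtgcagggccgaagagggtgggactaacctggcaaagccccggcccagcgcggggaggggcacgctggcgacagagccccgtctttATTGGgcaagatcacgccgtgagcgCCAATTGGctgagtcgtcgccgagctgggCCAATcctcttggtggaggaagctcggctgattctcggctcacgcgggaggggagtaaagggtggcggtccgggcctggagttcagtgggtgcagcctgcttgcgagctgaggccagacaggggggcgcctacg
SCD: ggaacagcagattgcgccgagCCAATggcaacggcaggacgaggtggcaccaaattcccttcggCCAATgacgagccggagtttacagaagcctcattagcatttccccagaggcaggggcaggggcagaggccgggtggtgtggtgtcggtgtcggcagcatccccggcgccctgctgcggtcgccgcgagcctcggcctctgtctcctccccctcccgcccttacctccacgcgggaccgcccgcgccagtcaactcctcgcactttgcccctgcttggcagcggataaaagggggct
INSIG1 held 1 E-box and 1 CCAAT box, while the INSIG2 window held no match to any of the 3 motifs, which says only that these letters are not in this window. SREBF2 held the single match to the sterol regulatory element pattern in the 47 windows of the 34 members with an entry. Of 35116 windows of all genes 1.13% held a match. ACAT2, FDFT1, SQLE and FASN had no window and were not searched. Only this 1 pattern was searched, so an element with other letters would not be found. CCAAT boxes overlap in NSDHL, whose window held 5. A CCAAT box was found in 16 of 21 sterol branch windows, in 11 of 20 fatty acid branch windows and in 2 of 6 regulator windows, against 34.6% of all windows. A GC box (GGGCGG on either strand, not capitalised) was found in 39 of 47 member windows, against 45.0% of all windows, and the E-box in 6 of 47, against 7.26%; no E-box lay in the SREBF2, NSDHL and SCD windows shown. Windows of 1 gene can overlap, and a match is a description of the letters, not a site in use.

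Of the 5 regulators, 2 were lower (40%), 1 was higher (20%) and 2 did not pass. With 5 genes, this mix is not set apart from the 33.9% lower and 36.3% higher of all tested genes. INSIG1, which retains SCAP and is induced by SREBPs, fell more than any other member. Its level was 15.4, 14.2 and 18.4 CPM in the 5-FU libraries and 122, 165 and 79.1 CPM in the control libraries, where CPM are scaled by edgeR's TMM factors. All 5-FU libraries lay far below the lowest control library, and control replicate 2 stood well above control replicate 3. Control averaged 7.63-fold the level of 5-FU (log2 fold change -2.93, SE 0.24, edgeR adjusted p = 2.27e-06). Only 0.688% of tested genes had as low a log2 fold change. INSIG1 lies at chr7:155297776-155310235 on the plus strand of GRCh38.

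INSIG2, the paralog with the same retaining role that is not a classical SREBP target, rose. Its level was 52.2, 46.0 and 48.4 CPM in 5-FU against 38.3, 35.3 and 28.0 CPM in control libraries, and the groups did not overlap. The rise was 1.44-fold (log2 fold change 0.53, SE 0.14, edgeR adjusted p = 0.00448), and it missed the threshold on log2(FPKM + 1) values with no filter (limma adjusted p = 0.0551). Within each library INSIG1 was the less counted of the pair in all 3 5-FU libraries, with log2 count ratios over INSIG2 of -1.76, -1.70 and -1.40, and the more counted in all 3 control libraries, with 1.67, 2.23 and 1.499. The difference was -3.42 on the log2 scale. The exact two-sided permutation p was 0.1, the smallest that 3 against 3 can give, and 0.15 after adjustment over the 6 pairs examined.

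SREBF2 fell moderately. Its level was 181, 197 and 191 CPM in 5-FU and 268, 319 and 232 CPM in control libraries, with no overlap (log2 fold change -0.53, SE 0.14, edgeR adjusted p = 0.00497). That call was lost with upper-quartile scaling (adjusted p = 0.287) and when genes with a mean count under 50 were left out (adjusted p = 0.0926). SREBF1 had 288, 234 and 261 CPM in 5-FU and 277, 365 and 247 CPM in control libraries, so the groups overlapped (log2 fold change -0.18, SE 0.16, edgeR adjusted p = 0.319). SCAP, the escort, had 112, 106 and 113 CPM in 5-FU and 100.1, 105 and 113 CPM in control libraries, again with overlap (log2 fold change 0.05, SE 0.11, edgeR adjusted p = 0.669). SCAP passed as higher under the 2 settings that lost SREBF2, at adjusted p = 0.00431 and 0.0198. The log2 count ratio of SREBF1 over SREBF2 was 0.67, 0.25 and 0.45 in 5-FU and 0.04, 0.19 and 0.09 in control libraries, without overlap, at the smallest exact permutation p of 0.1.

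**Figure D2:**
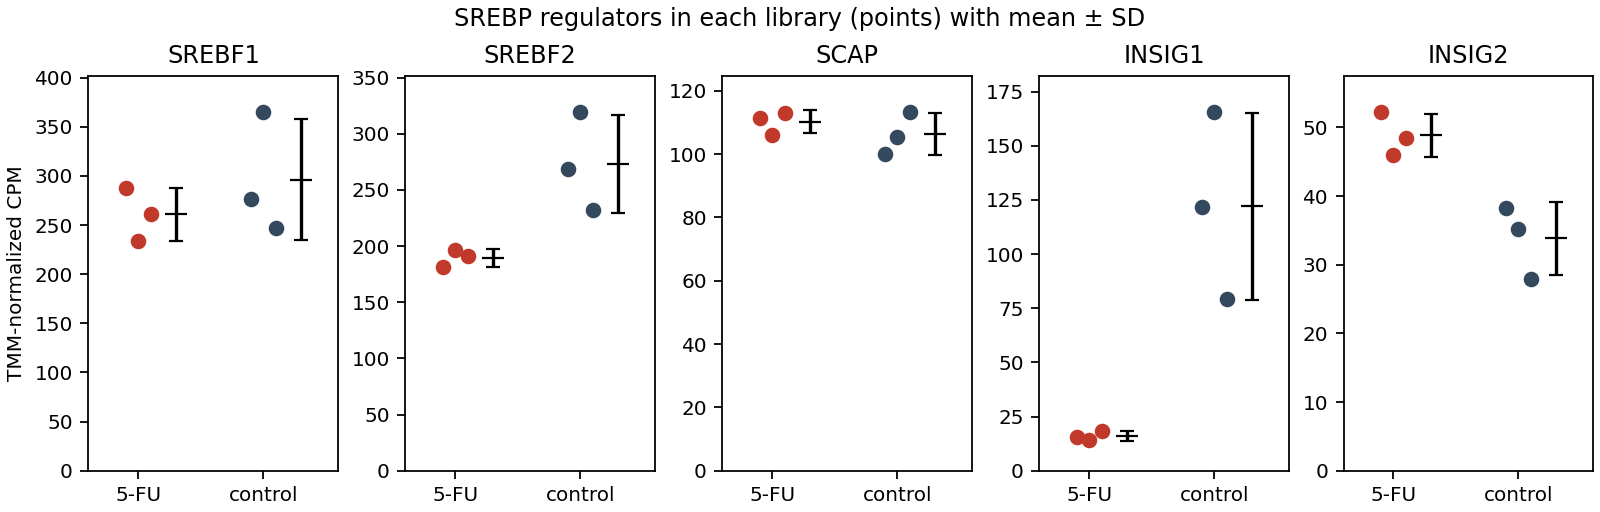
TMM-normalized CPM of the 5 SREBP regulators in each library (points), 5-FU left of control in each panel, with mean ± SD beside them; each panel has its own axis from 0. INSIG1 is near 16 CPM in all 5-FU libraries and spread from 79.1 to 165 CPM in control, INSIG2 is higher in 5-FU, and SREBF1 and SCAP overlap.

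In the sterol branch 18 of 19 members fell and 1 rose, with a median log2 fold change of -1.21. Of all tested genes 33.9% fell and 36.3% rose. The groups did not overlap for any of the 19, where 74.3% of all tested genes did not overlap. A fall of at least 2-fold was found for 10, against 16.2% of all tested genes. The branch starts with ACAT2, which joins acetyl-CoA units. Its level was 4.18, 5.37 and 7.10 CPM in 5-FU and 23.0, 17.9 and 20.4 CPM in control libraries, so that every 5-FU library lay below every control library. Its log2 fold change was the lowest of the branch by a margin far under its error, at -1.88 (SE 0.20, edgeR adjusted p = 1.13e-05), and on log2(FPKM + 1) values it was -1.43, weaker than that of FDFT1. Of its exonic bases, 52.3% are shared with exons of opposite-strand genes, and the kit as named keeps no strand information. Some of its reads may belong to those genes, and how reads in the shared bases were counted is not stated. TCP1, which covers 9.23%, had 2779, 3031 and 3985 counts in 5-FU and 7649, 5265 and 8113 in control libraries. The others, a SOD2 entry (26.5%) and SOD2-OT1 (33.9%), had at most 6 and 1 counts in a library.

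The enzymes of the mevalonate steps fell by differing amounts. HMGCS1, which makes the precursor HMG-CoA, fell by 1.42 on the log2 scale (SE 0.15, edgeR adjusted p = 1.25e-05), and IDI1, which isomerises the first isoprenoid unit, fell by 1.43 (SE 0.15, edgeR adjusted p = 8.21e-06). Between them, the mevalonate kinase MVK fell by 0.85 and the phosphomevalonate kinase PMVK by 0.97. MVD, the decarboxylase that follows them, showed the smallest fall of the branch, at -0.34 (SE 0.12, edgeR adjusted p = 0.0221). It had 39.0, 38.2 and 35.9 CPM in 5-FU and 43.7, 52.6 and 46.9 CPM in control libraries. The call on MVD was lost without 5-FU replicate 2 (adjusted p = 0.0505) or 5-FU replicate 3 (adjusted p = 0.0593), and with upper-quartile scaling its log2 fold change was 0.02 (adjusted p = 0.919). FDPS, which makes farnesyl diphosphate, fell by 0.71 (SE 0.13, edgeR adjusted p = 0.000384).

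FDFT1, squalene synthase, commits farnesyl diphosphate to sterols. It had 61.0, 63.5 and 72.4 CPM in 5-FU and 208, 306 and 204 CPM in control libraries. The lowest control library was well above the highest 5-FU library, and control averaged 3.65-fold the 5-FU level (log2 fold change -1.87, SE 0.17, edgeR adjusted p = 3.96e-06). SQLE, the epoxidase that acts next on squalene, fell by 1.36 on the log2 scale (edgeR adjusted p = 1.79e-05). LSS, which closes the ring to lanosterol, fell by 0.47 (SE 0.15, edgeR adjusted p = 0.0156). Its levels of 154, 111 and 126 CPM in 5-FU lay just below the 169.7, 212 and 162 CPM in control libraries, and its call was lost without 5-FU replicate 2 (adjusted p = 0.0718).

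The steps from lanosterol to cholesterol fell except for 1 enzyme. NSDHL, a sterol dehydrogenase of the demethylation complex, had 9.42, 11.7 and 13.1 CPM in 5-FU and 34.2, 35.5 and 35.1 CPM in control libraries. The 3 control libraries were nearly equal, and control averaged 3.05-fold the 5-FU level (log2 fold change -1.61, SE 0.15, edgeR adjusted p = 4.13e-06). EBP, the sterol isomerase, had 12.0, 20.7 and 21.5 CPM in 5-FU and 65.5, 45.0 and 61.2 CPM in control libraries, again without overlap. The fall was -1.66 on the log2 scale (SE 0.21, edgeR adjusted p = 3.93e-05). CYP51A1, the lanosterol demethylase, fell by 1.34 on the log2 scale, as did MSMO1, the methylsterol oxidase. Another annotated gene on the same strand covers 79.4% of CYP51A1's exonic bases and was listed with at most 1 count in a library; how reads in that stretch were counted is not stated. DHCR7, the last reductase of the route through 7-dehydrocholesterol, fell by 1.21 and SC5D, the desaturase before it, by 0.71. TM7SF2, a sterol reductase, fell by 0.63, and STARD4, a cytosolic cholesterol carrier, by 0.94. Calls on MVK, TM7SF2 and SC5D were lost with upper-quartile scaling, at adjusted p = 0.0655, 0.0714 and 0.0823.

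HSD17B7, the ketosteroid reductase that works beside NSDHL in the same demethylation complex, was the member that rose. Its level was 30.1, 21.3 and 21.4 CPM in 5-FU and 16.4, 16.0 and 15.8 CPM in control libraries. The 5-FU libraries all lay above the control libraries, with 5-FU replicate 1 well above the other two, and the rise was 1.51-fold (log2 fold change 0.59, SE 0.16, edgeR adjusted p = 0.00571). On log2(FPKM + 1) values with no filter it missed the threshold (limma adjusted p = 0.0663). A pseudogene copy, HSD17B7P2 on chromosome 10, had 244, 194 and 214 counts in 5-FU and 66, 98 and 46 counts in control libraries, while HSD17B7 itself had 590, 409 and 451 counts in 5-FU and 366, 355 and 321 counts in control. The sources used here do not say how reads that match both were counted, so its rise is uncertain.

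In the fatty acid branch 11 of 13 tested members fell, none rose and 2 did not pass, with a median log2 fold change of -0.90. The shares of all tested genes were 33.9% lower and 36.3% higher. In the most abundant quintile 60.4% were lower, at a median of -0.53. The groups did not overlap for 10, a share near the 74.3% of all tested genes, and 6 fell at least 2-fold, against 16.2% of all tested genes. ACLY, which makes cytosolic acetyl-CoA from citrate, had 138, 150.0 and 151 CPM in 5-FU and 401, 417 and 401 CPM in control libraries. Both groups were tight, and control averaged 2.78-fold the 5-FU level (log2 fold change -1.47, SE 0.12, edgeR adjusted p = 2.33e-06). ACSS2, which makes acetyl-CoA from acetate, had 74.0, 57.2 and 56.1 CPM in 5-FU and 64.1, 82.0 and 52.4 CPM in control libraries. Its groups overlapped (log2 fold change -0.08, SE 0.17, edgeR adjusted p = 0.670).

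The acetyl-CoA carboxylases make malonyl-CoA and their genes differed. ACACA, the cytosolic form used for synthesis, had 115, 112 and 108 CPM in 5-FU and 212, 198 and 192 CPM in control libraries, with a wide gap between the groups (log2 fold change -0.85, SE 0.11, edgeR adjusted p = 4.66e-05). ACACB, the mitochondria-associated form known for restraining fatty acid oxidation, had 22.8, 17.6 and 19.5 CPM in 5-FU and 20.2, 21.6 and 18.5 CPM in control libraries. Those ranges overlapped (log2 fold change -0.01, SE 0.14, edgeR adjusted p = 0.945). The log2 count ratio of ACACA over ACACB was 2.33, 2.67 and 2.47 in 5-FU and 3.38, 3.19 and 3.38 in control libraries, a difference of -0.83 at the smallest exact permutation p of 0.1.

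FASN, the synthase that builds palmitate, had 179, 187 and 166 CPM in 5-FU and 581, 645 and 589 CPM in control libraries. Every control library held more than any 5-FU library by a margin far over the spread within groups (3.41-fold, log2 fold change -1.77, SE 0.13, edgeR adjusted p = 1.36e-06). SCD, the desaturase that makes oleate and palmitoleate, fell most of the branch. It had 113, 87.9 and 137 CPM in 5-FU and 494, 711 and 331 CPM in control libraries. Here the control libraries were spread, with control replicate 2 highest and control replicate 3 lowest as for INSIG1, but the groups stood apart (4.53-fold, log2 fold change -2.18, SE 0.26, edgeR adjusted p = 2.01e-05). On GRCh38, FASN lies at chr17:82078333-82098332 on the minus strand and SCD at chr10:100347124-100364834 on the plus strand.

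Among desaturases of polyunsaturated fatty acids, FADS2, the delta-6 desaturase, had 4.48, 6.21 and 4.69 CPM in 5-FU and 17.7, 16.0 and 15.9 CPM in control libraries. All 5-FU libraries were low (3.23-fold, log2 fold change -1.69, SE 0.17, edgeR adjusted p = 8.73e-06). FADS1, the delta-5 desaturase encoded next to it, fell by 1.09 on the log2 scale (SE 0.13, edgeR adjusted p = 2.23e-05). The log2 count ratio of FADS1 over FADS2 was 2.32, 2.22 and 2.65 in 5-FU and 1.70, 1.83 and 1.88 in control libraries, a difference of 0.59 at the smallest exact permutation p of 0.1. The pair overlap on opposite strands over 4.79% of FADS1's and 4.44% of FADS2's exonic bases.

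The elongases and acyl-CoA synthetases complete the branch. ELOVL6, which lengthens palmitate, fell by 1.33 on the log2 scale (SE 0.13, edgeR adjusted p = 7.14e-06). ELOVL1, an elongase of very long chains, had 47.9, 78.5 and 66.4 CPM in 5-FU and 94.2, 77.4 and 96.9 CPM in control libraries. Its groups overlapped although it passed (log2 fold change -0.48, SE 0.17, edgeR adjusted p = 0.0249). Without 5-FU replicate 1, control replicate 1 or control replicate 3 the adjusted p of ELOVL1 was 0.0738, 0.0575 and 0.0617 in turn. ACSL3, ACSL4 and ACSL5, which activate long-chain fatty acids, fell by 0.90, 0.85 and 0.78 on the log2 scale. The log2 count ratio of ACSL3 over ACSL4 was 1.09, 0.72 and 0.97 in 5-FU and 0.97, 1.08 and 0.83 in control libraries, which overlapped (exact permutation p = 1).

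**Figure D3:**
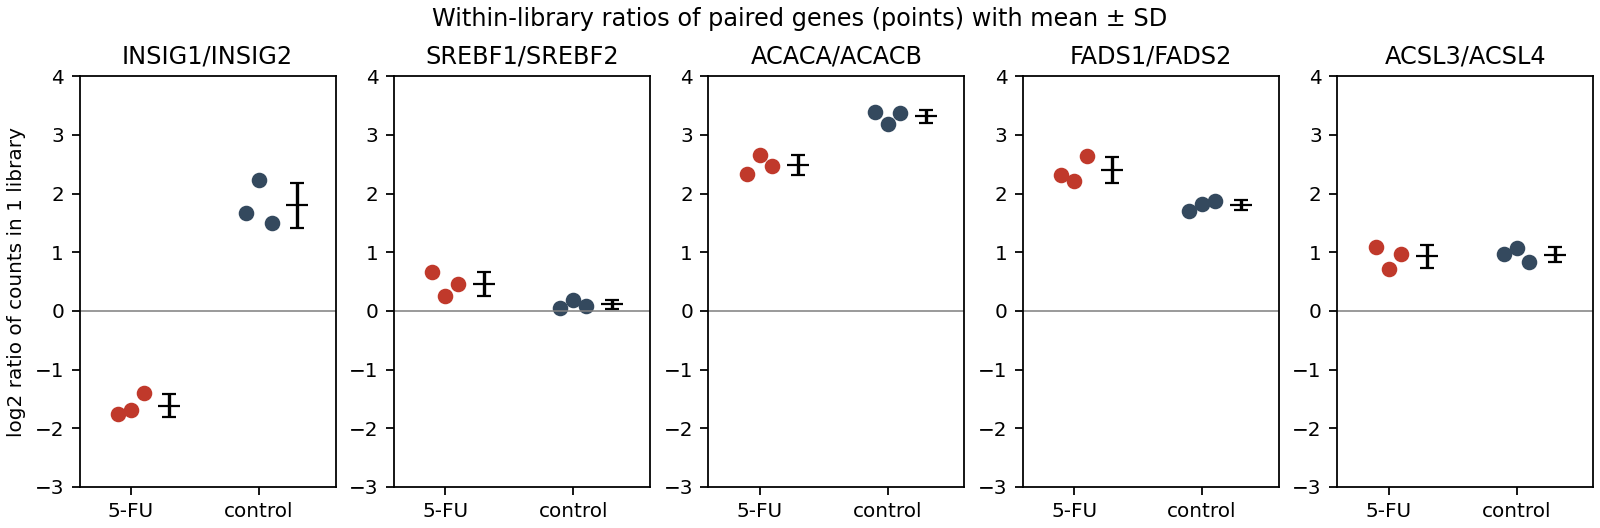
Log2 ratio of the counts of 2 paired genes within each library (points), 5-FU left of control, with mean ± SD. INSIG1 over INSIG2 is below 0 in all 5-FU and above 0 in all control libraries, SREBF1 over SREBF2, ACACA over ACACB and FADS1 over FADS2 do not overlap between groups, and ACSL3 over ACSL4 does.

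Set side by side, the branches both took smaller shares of the counts in 5-FU, and the difference between them overlapped between the groups. The sterol branch took 0.0694%, 0.0662% and 0.0715% of counts in 5-FU and 0.127%, 0.161% and 0.115% in control libraries. The exact 95% binomial interval, which covers counting error only, was 0.0682% to 0.0706% in 5-FU replicate 1 and 0.126% to 0.128% in control replicate 1. The fatty acid branch took 0.0957%, 0.0995% and 0.101% in 5-FU and 0.225%, 0.267% and 0.201% in control libraries. With mitochondrial counts left out of the total, the sterol share averaged 0.0943% ± 0.00468 in 5-FU and 0.141% ± 0.0250 in control, and the fatty acid share 0.135% ± 0.00166 in 5-FU and 0.243% ± 0.0356 in control (SD, n = 3 each). The mean log2(CPM + 0.5) of tested sterol members minus that of fatty acid members was -0.96, -1.03 and -0.89 in 5-FU and -1.002, -0.85 and -0.97 in control libraries. These differences overlapped between the groups and averaged -0.96 ± 0.07 in 5-FU and -0.94 ± 0.08 in control (SD, n = 3 each). They compare the branches across groups and not the abundance of 1 branch with the other, which depends on gene length.

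**Figure D4:**
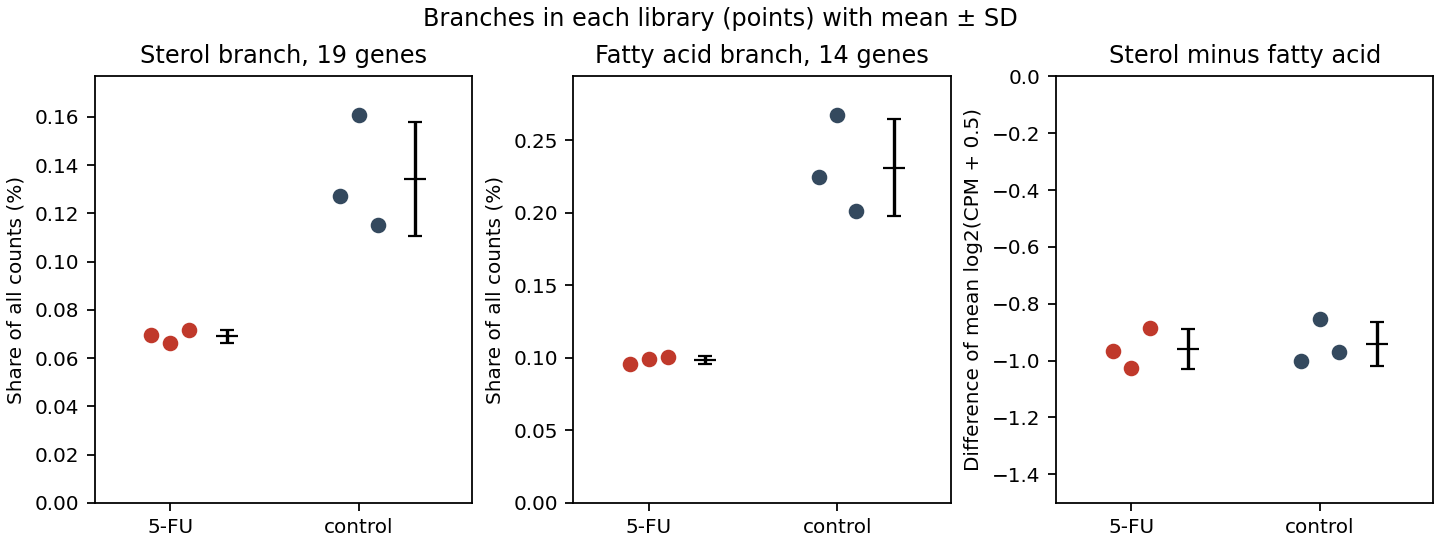
Share of each library's counts (percent) taken by the sterol and the fatty acid branch, and the mean log2(CPM + 0.5) of the sterol minus the fatty acid branch, in each library (points), 5-FU left of control, with mean ± SD. Both shares are lower in every 5-FU library, and the difference between branches overlaps between groups.

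Per length, in the authors' FPKM, the highest members in control cells were SCD, ACLY, FASN and FDFT1. SCD averaged 19.8 ± 4.48 FPKM in 5-FU and 98.7 ± 35.1 FPKM in control, where its spread covers the level of the next genes. ACLY averaged 26.4 ± 2.10 FPKM in 5-FU and 80.8 ± 0.473 FPKM in control, and FASN 17.8 ± 1.15 FPKM in 5-FU and 67.0 ± 2.71 FPKM in control (SD, n = 3 each). FDFT1 averaged 11.9 ± 1.38 FPKM in 5-FU and 47.6 ± 10.5 FPKM in control. SREBF1, with 30.4 ± 2.35 FPKM in 5-FU and 38.2 ± 7.21 FPKM in control, was the highest member in 5-FU cells, though its range of mean ± SD met those of ACLY and of ELOVL1 (24.2 ± 6.41 FPKM in 5-FU and 37.1 ± 4.95 FPKM in control). INSIG1 averaged 4.12 ± 0.609 FPKM in 5-FU and 34.6 ± 11.7 FPKM in control, and INSIG2 11.6 ± 0.418 FPKM in 5-FU and 8.88 ± 1.37 FPKM in control. FADS2, CYP51A1 and ACACB were the lowest tested members in control, and ACAT2 joined them in 5-FU. CYP51A1 averaged 1.12 ± 0.225 FPKM in 5-FU and 3.14 ± 0.449 FPKM in control. CYP51A1 and ACAT2 share 83.2% and 52.3% of their exonic bases with other genes. How reads in those stretches were counted is not stated, so the low rank of these members is uncertain.

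Replicates of a group differed in the same direction for many sterol genes. Control replicate 2 was the highest control library for 15 of 19 sterol members, against 36.0% of all tested genes, and control replicate 3 the lowest for 12 of 19, against 29.2%. In 5-FU, replicate 3 was highest for 12 of 19 sterol members, against 31.9% of all tested genes, and replicate 1 lowest for 12 of 19, against 37.3%. These are counts without a test.

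Other genes of SREBP handling fell for 11 of 13 and rose for 2, against 33.9% lower and 36.3% higher of all tested genes, with a median log2 fold change of -0.54. That median is near the -0.53 of the most abundant quintile, of which 60.4% fell. With upper-quartile scaling, or with genes under a mean count of 50 left out, 6 of the 13 fell. SEC23A, a coat subunit of the vesicles that carry SCAP to the Golgi, fell by 1.32 on the log2 scale, and ERLIN1, an endoplasmic reticulum protein that binds INSIG and SCAP complexes, by 1.52. UBE2G2, a ubiquitin-conjugating enzyme of endoplasmic reticulum degradation, rose by 1.35. In 12 other genes of sterol and isoprenoid synthesis 9 fell (75.0%), 2 rose and 1 did not pass, at a median of -1.19, against the same 33.9% and 36.3%. The 2 that rose became 1 without 5-FU replicate 2, 5-FU replicate 3, control replicate 2 or control replicate 3, and 0 with DESeq2, with no low-count filter or on log2 FPKM values. LBR, a lamin B receptor with sterol reductase activity, fell by 1.87 and COQ2, of coenzyme Q synthesis, by 1.52.

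The 2 cholesterol exporters named here rose. Of 8 liver X receptor factors and efflux genes, 4 rose, 1 fell and 3 did not pass; their log2 fold changes had a median of 0.29. Of all tested genes 36.3% rose, and the fall of 1 was lost without 5-FU replicate 2 or 5-FU replicate 3 and under 3 other settings. ABCA1, the transporter that loads cholesterol onto apolipoprotein, had 56.9, 33.8 and 50.3 CPM in 5-FU and 5.74, 6.91 and 5.23 CPM in control libraries. Each 5-FU library stood far above each control library (7.87-fold, log2 fold change 2.98, SE 0.21, edgeR adjusted p = 1.02e-06). ABCG1, another exporter, had 64.5, 35.0 and 45.6 CPM in 5-FU and 11.5, 16.4 and 11.4 CPM in control libraries, likewise without overlap (3.69-fold, log2 fold change 1.88, SE 0.22, edgeR adjusted p = 2.11e-05). Both genes are classical targets of the liver X receptors, whose genes NR1H2 and NR1H3 did not pass (log2 fold changes -0.15 and -0.07). Of 13 genes of uptake, storage and intracellular transport, 5 fell, 3 rose and 5 did not pass; the share that fell, 38.5%, is near the 33.9% of all tested genes. Without 5-FU replicate 1 or 5-FU replicate 2, 3 fell, and with upper-quartile scaling 2 fell and 5 rose. Named in this list were OSBPL8, a lipid transfer protein, at -1.65, STARD3, a late endosomal cholesterol carrier, at 0.66 and NCEH1, a cholesteryl ester hydrolase, at -0.77.

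Of 20 tested genes among 23 others of fatty acid synthesis, 12 fell, 3 rose and 5 did not pass; their log2 fold changes had a median of -0.40. The share that fell was 60.0%, against 33.9% of all tested genes but near the 60.4% of the most abundant quintile. With upper-quartile scaling 7 fell. FADS3, the desaturase gene next to FADS1 and FADS2, rose. It had 206, 227 and 190.5 CPM in 5-FU and 42.3, 45.7 and 41.4 CPM in control libraries, with both groups tight and far apart (4.81-fold, log2 fold change 2.27, SE 0.12, edgeR adjusted p = 5.16e-07). MCAT, of mitochondrial fatty acid synthesis, fell by 1.58 and HACD2, a dehydratase of the elongation cycle, by 1.13. Of 18 genes of triglyceride and phospholipid synthesis, 8 fell (44.4%), 4 rose (22.2%) and 6 did not pass, at a median of -0.14, against 33.9% lower and 36.3% higher of all tested genes. The balance turned to 5 lower and 9 higher with upper-quartile scaling, and to 5 and 8 with genes under a mean count of 50 left out. CHKA, the choline kinase, rose by 1.92 and LPIN3, a phosphatidate phosphatase, by 1.55, while PEMT, which methylates phosphatidylethanolamine, fell by 1.47. Of 25 genes of fatty acid oxidation 17 fell (68.0%), 1 rose and 7 did not pass, at a median of -0.56. Of all tested genes 33.9% fell and 36.3% rose. Of the most abundant quintile 60.4% fell, at a median of -0.53, near the values of this list. Named here were ECI1 at -1.58, ACAA2 at -1.44 and ACADM at -1.37, all mitochondrial enzymes of the pathway.

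**Figure D5:**
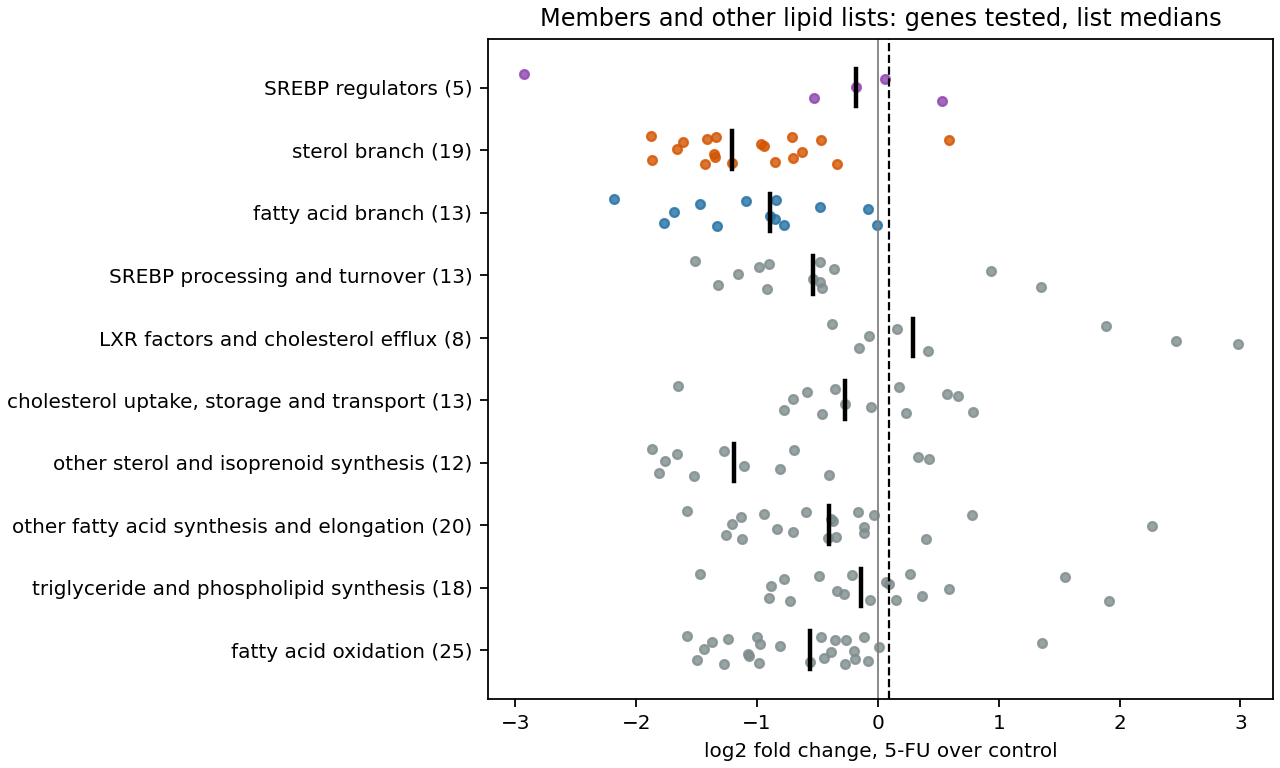
Log2 fold change (5-FU over control) of each tested gene (points) in the member groups and the other lipid lists, with each list's median and a dashed line at the median of all tested genes; numbers in brackets are genes tested. The sterol branch (median -1.21), other sterol and isoprenoid genes (-1.19) and the fatty acid branch (-0.90) lie lowest, and the liver X receptor and efflux list (0.29) highest.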

How the data were processed

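RNA was sequenced from 6 samples. Libraries came from the NEBNext Ultra RNA kit, per the labels' protocols. The submitters' processing notes name DESeq2 1.16.1, featureCounts 1.5.0-p3, HISAT2 2.0.5 and build GRCh38; how strand and multi-mapping reads were handled is not given there. The authors deposited whole-number counts per gene and an FPKM table. Tested on the values, the authors' FPKM equal count over gene length over 1 constant per library, 1.07 to 1.16 times the count total in 5-FU and 0.892 to 0.986 times in control.

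From the counts, edgeR 4.0.16 (R 4.3.3) fitted all 6 libraries with filterByExpr (minimum count 10, minimum total 15), TMM factors (1.03 to 1.05 in 5-FU, 0.937 to 1.00 in control), a design of group alone, its quasi-likelihood test and Benjamini-Hochberg adjustment over 19771 genes. Ratios used counts plus 0.5 and exact permutation tests with Benjamini-Hochberg adjustment over 6 pairs, of which ELOVL5 over ELOVL6 (exact p = 0.4) rests on almost no ELOVL5 counts. Within a group, chi-square per gene between libraries was 9.02 to 23.4, more than counting noise gives. Alternatives were other scalings, filters, DESeq2 1.42.0, limma 3.58.1 (voom, and trend on log2 FPKM), a replicate block and leaving out each library. On log2(FPKM + pseudocount) scales the change of low genes is understated. The edgeR step was tested on simulated counts.

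The members, lists and tests were chosen with earlier results of these data known. All members are accounted for. Values per sample are given for the regulators, for the 4 called members of each branch with the largest absolute log2 fold change and no overlap, for members that rose or did not pass, and, chosen after their values were seen, for ACACA, MVD, LSS and ELOVL1; of each other list up to 3 called genes of smallest p are named, and of marker lists the most abundant. NR1H2, NR1H3 and DCN were picked with their values in view. The rule also gave 2 genes that are left unreported but stay in the counts of their lists. Exonic bases shared with another gene (GENCODE 29) were found for 19 of 38 members, over 50% for 2.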

Additional observations from a re-analysis of the deposited data

How the results depend on the processing

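Over 18 other settings, 24 of 33 called members kept their direction and call. Of 666 member values in all settings, 640 stayed on their side of the threshold, 23 lost the call, 2 gained it and 1, MVD with upper-quartile factors, reversed (0.0154). Members lower and higher numbered 24 and 3 with upper-quartile factors, 28 and 2 with plain library totals, 27 and 3 with a mean count of at least 50, and 29 to 31 and 2 without 1 library. Upper-quartile factors moved the median of all genes by 0.36 (log2) and plain totals by 0.11, and upper-quartile factors made 9602 genes higher and 4614 lower; the members' median lay -1.04 from the median of all genes under TMM and both of these, but -0.71 from it with a mean count of at least 50, -0.77 on log2(FPKM + 1), -1.70 with no low-count filter and -1.71 with DESeq2. With upper-quartile factors or a mean count of at least 50, 1 SREBP regulator was lower and 2 were higher. On log2(FPKM + 1) and log2(FPKM + 0.1), 4320 and 4268 genes were higher among 16093 with at least 1 FPKM in at least 3 libraries. With no filter, log2(FPKM + 1) put 6926 of 39721 genes higher, with 0 regulators and 0 sterol members among them. The cause was not tested. Other calls lost on LSS were at adjusted p = 0.533 (upper-quartile factors), 0.0580 (plain totals) and 0.233 (mean count of at least 50), and on ELOVL1, which lost its call in 7 of 18 settings, at 0.498, 0.0604 and 0.236 under the same 3 and 0.0691 on log2(FPKM + 1) with no filter. Of the other lists' named genes, KRT8 alone lost its call in some setting (6 of 18), and 36 of 324 list counts moved by over 1.5 times, 8 of 18 under each of upper-quartile factors and a mean count of at least 50. Leaving out 1 library moved the ACSL3 over ACSL4 difference between -0.115 and 0.0741, reversing it without 5-FU replicate 2 or control replicate 2. Deviations of same-numbered samples correlated at -0.10, -0.25 and 0.07, and those of differently numbered samples at -0.15 to 0.20. These values showed no pairing by number but cannot exclude one. A replicate block in edgeR gave 30 members lower and 2 higher, 6380 genes lower and 6863 higher, and MVD at adjusted p = 0.0528. With 3 libraries a group the SE of the SREBF1 change was 0.16, about its size (-0.18), and ELOVL5 had too few counts for a test.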
